A study of Rattus norvegicus with 320 samples.

Results

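The rat miRNAs (microRNAs) whose genes lie inside the Hox gene clusters were examined across 11 organs and 4 ages. They were chosen by name alone: every row of the deposited table called rno-miR-10a, miR-10b, miR-196a, miR-196b, miR-196c or miR-615, with or without an arm suffix, was taken. This gave 11 of the 616 miRNAs in the table, namely both arms of miR-10a, miR-10b, miR-196a, miR-196b and miR-196c, and miR-615. Together these 11 rows held 24.05% of all counts in the table. In the samples analysed, without the 2 libraries named below, miR-10b-5p held 13.93% and miR-10a-5p 10.22% of the counts.

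Small RNA libraries were made from total RNA of whole ground organs of Fisher 344 rats of 2, 6, 21 and 104 weeks of age. Kidney, adrenal gland, lung, spleen, liver, muscle, thymus, heart and brain came from females and males, testis from males and uterus from females, with 4 samples for each organ, sex and age (80 groups, 320 samples). No allele, agent or treatment was part of any group, and all rats were housed in pairs. Because each organ was ground whole, a lower level can reflect fewer cells of a type or less RNA per cell, and these cannot be told apart. Library totals ran from 315550 to 10571766 counts with a median of 2856968, and liver libraries were the smallest, with a median of 1040989. Of the 320 libraries, 1 male brain library of week 6 and 1 female spleen library of week 104 had not clustered with their organ in the study and were left out here. The fixed organ markers were each highest in their own organ, for example miR-124-3p in brain at a mean of 10829 CPM (counts scaled to a library total of 1000000) and miR-122-5p in liver at 29704 CPM, while adrenal gland, kidney and lung had no marker on the list. RNA integrity was low in the spleen samples of week 2.

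Hox genes encode transcription factors that give cells their position along the head-to-tail axis of the embryo, and their order within each cluster follows that axis. Adult cells often keep the Hox pattern of the place where they arose. The miR-10 genes sit beside the Hox4 genes and the miR-196 genes beside the Hox9 and Hox10 genes, and both families are known to repress Hox mRNAs among other targets. A mature miRNA is one arm of a hairpin, named 5p or 3p, and finds its targets mainly through its seed, bases 2 to 8 from the 5′ end.

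The sequences matter here because the paralogs differ by single bases, and the levels below depend on telling them apart. All sequences are those of the deposited table, and 10 of the 11 members were found with the same sequence among RefSeq mature miRNAs (assembly GRCr8). Capitals mark the seed.
miR-10a-5p: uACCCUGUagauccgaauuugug
miR-10b-5p: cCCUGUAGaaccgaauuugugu
miR-196a-5p: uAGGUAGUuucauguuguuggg
miR-196b-5p: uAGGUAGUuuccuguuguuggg
miR-196c-5p: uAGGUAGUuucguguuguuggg

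In GRCr8, miR-10a-5p lies on chromosome 10 at chr10:81779730-81779752 on the plus strand, between Hoxb5 and Hoxb4. MiR-10b-5p lies at chr3:80035886-80035907 on the plus strand, inside the span of Hoxd4 and between Hoxd8 and Hoxd3. MiR-196a-5p lies at chr7:135988900-135988921 (plus strand) between Hoxc10 and Hoxc9, miR-196b-5p at chr4:82661149-82661170 (minus strand) between Hoxa9 and Hoxa10, and miR-196c-5p at chr10:81727561-81727582 (plus strand) between Hoxb13 and Hoxb9. MiR-615, at chr7:136030369-136030390 on the plus strand, falls inside the spans of Hoxc5 and Hoxc6. MiR-10a and miR-196c thus share the Hoxb cluster, and miR-196a and miR-615 the Hoxc cluster.

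Counted from 1 at the 5′ end of the first miRNA named, miR-10a-5p and miR-10b-5p differ by U12A where they overlap, and the deposited miR-10b-5p starts 2 bases further in. As deposited, the seeds therefore differ. The RefSeq miR-10b hairpin carries the missing bases, and the same stretch read from there, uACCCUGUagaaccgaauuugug, has the seed of miR-10a-5p. MiR-196a-5p and miR-196b-5p differ by A12C, miR-196a-5p and miR-196c-5p by A12G, and miR-196b-5p and miR-196c-5p by C12G, outside their common seed. Only these 3 rows of the table carried the seed AGGUAGU. The reads had been aligned with fewer than 2 mismatches allowed, so reads of one paralog could in principle be counted for another. How ties were resolved is not given in the sources used here.

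The row rno-miR-10a-5p (miR-10a-5p below) was highest in kidney and lowest in brain. In kidney it took 299072 ± 30459.6 CPM (SD, n = 32), that is 29.9% of all counts, with a lowest sample of 244326, a median of 298321 and a highest of 386823 CPM. Adrenal gland followed at 187894 ± 34371 CPM (n = 32), lung at 102067 ± 15499 (n = 32), spleen at 78345 ± 15286 (n = 31) and liver at 56581 ± 11664 (n = 32). Uterus had 43190.4 ± 10697 CPM (n = 16), muscle 31751 ± 13166 (n = 32), thymus 30206 ± 30732 (n = 32), heart 24606 ± 7419 (n = 32) and testis 20631 ± 22817 (n = 16). Brain stood far below every other organ at 2685 ± 1302 CPM (n = 31), with no brain sample above 5249 CPM. The wide SD of thymus and testis comes with a level that differed between ages, described below.

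This order was tested with edgeR, 1 fit per age, over the 55 pairs of organs at 4 ages (220 contrasts), a pair being called at an adjusted p under 0.05 and at least 4-fold. Over all 616 miRNAs, 33.3% of contrasts were called. MiR-10a-5p was called in 122 of 220 (55.5%), kidney being at least 4-fold higher in 34 of its 40 contrasts (11.4% over all miRNAs) and brain lower in 40 of 40 (18.2%). Kidney exceeded adrenal gland, adrenal gland exceeded lung and lung exceeded spleen at all 4 ages (adjusted p under 0.05, with log2 differences of 0.61 to 1.36, 0.82 to 1.83 and 0.49 to 0.89). Spleen and liver did not differ at any age, the adjusted p being 0.172 or more and the log2 difference between -0.43 and 0.22. Below them the order changed with age: thymus was lower than heart at 2 ages and higher at 1, and testis was lower than heart at 3 ages and higher at 1.

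The row rno-miR-10b-5p (miR-10b-5p) had another order of organs. Adrenal gland was highest at 318399 ± 53128 CPM (n = 32), with samples from 223143 to 424906 CPM around a median of 313188. Uterus had 277118 ± 58734 CPM (n = 16), testis 257066 ± 185760.2 (n = 16), kidney 219468 ± 39235 (n = 32) and muscle 176169 ± 95144 (n = 32). Thymus had 53889 ± 51149 CPM (n = 32) and spleen 29294 ± 7878 (n = 31). Lung, heart, liver and brain were lower still, at 9293 ± 3062, 6253 ± 2337, 4793 ± 2564 and 3397 ± 2058 CPM. Liver and lung, which ranked high for miR-10a-5p, thus ranked among the last 4 organs for miR-10b-5p.

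MiR-10b-5p was called in 148 of 220 organ contrasts (67.3%, against 33.3% over all miRNAs). Adrenal gland and uterus did not differ at an adjusted p under 0.05 at any age (adjusted p of 0.0945 or more, log2 differences of -0.73 to 0.22). Neither did lung and heart (0.0572 or more), although their log2 differences had the same sign at all 4 ages (0.16 to 0.64). Muscle exceeded thymus, spleen exceeded lung and liver exceeded brain at all 4 ages. Testis was above kidney at 1 age and below it at 3.

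**Figure D1:**
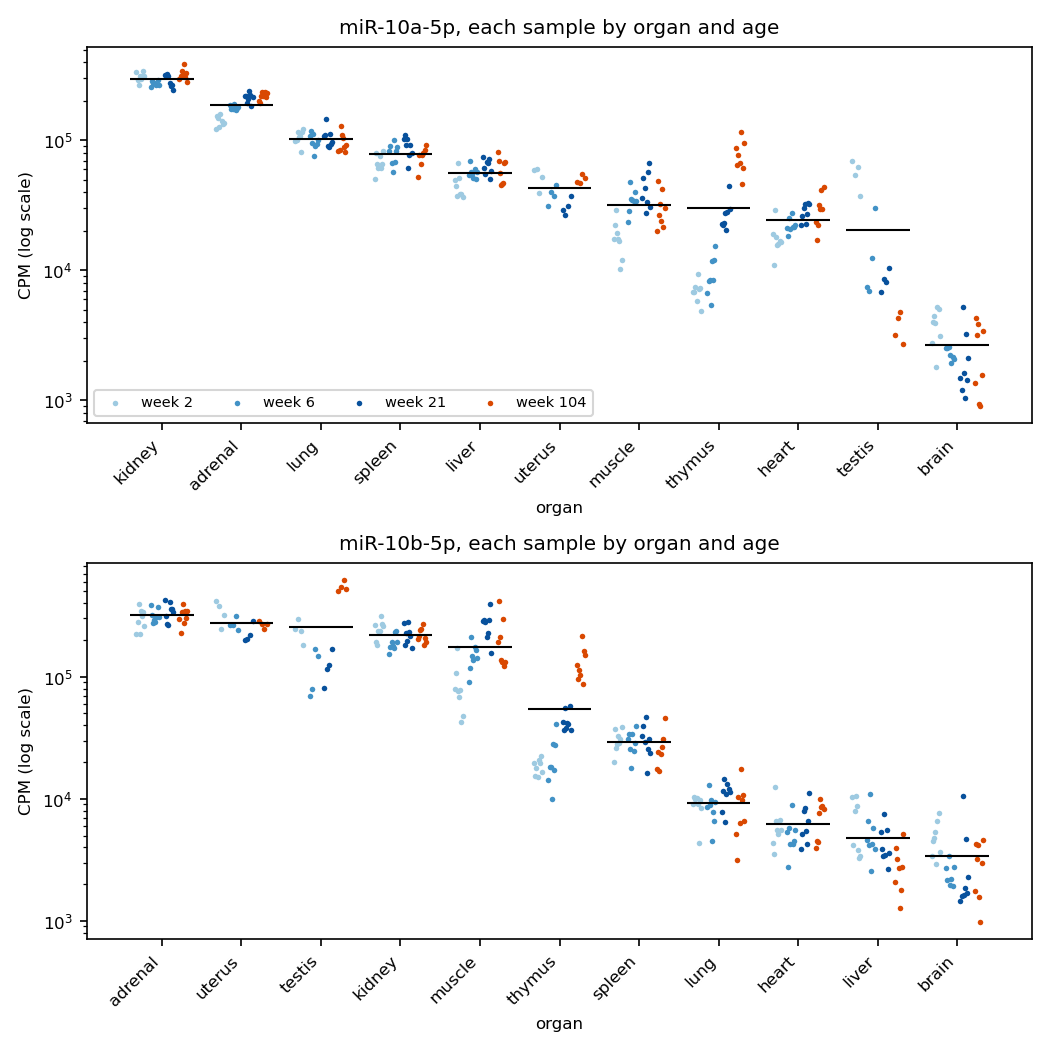
CPM of miR-10a-5p (top) and miR-10b-5p (bottom) on a log scale, each point 1 sample coloured by age and each black line the mean of an organ, organs ordered by mean. Kidney leads for miR-10a-5p with a mean of 299072 CPM and adrenal gland for miR-10b-5p with 318399 CPM, and thymus and testis spread most between ages.

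Taken as a pair, the 2 miRNAs took very different parts of a library. The 11 members held 51.97 ± 6.16% (SD) of all counts in kidney, 50.65 ± 7.49% in adrenal gland and 32.23 ± 6.70% in uterus, and 0.609 ± 0.328% in brain. Most of these counts were miR-10a-5p and miR-10b-5p. A CPM is a share, so a level of this size lowers the CPM of all other miRNAs in the same library, and the tests used scaling factors (TMM) that correct for this only in part. The ratio of the 2 counts within a library does not depend on such scaling, and was compared directly.

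The ratio of miR-10a-5p to miR-10b-5p counts separated the organs. Liver had 13.1 miR-10a-5p counts per miR-10b-5p count (geometric mean, n = 32, samples from 4.68 to 38.8) and lung 11.5 (n = 32, 5.93 to 26.5). Heart had 4.01 (2.34 to 6.63), spleen 2.72 (1.99 to 3.88) and kidney 1.38 (0.989 to 1.74). In liver, lung, heart and spleen every sample had more miR-10a-5p than miR-10b-5p, and in kidney 30 of 32 did. Brain was close to parity at 0.813 (0.5004 to 1.18), with 4 of 31 samples above 1. MiR-10b-5p was in excess in every sample of adrenal gland (0.588, 0.381 to 0.846), thymus (0.498, 0.292 to 0.813), muscle (0.192, 0.103 to 0.259), uterus (0.154, 0.118 to 0.226) and testis (0.0588, 0.00517 to 0.285).

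In a permutation test of the mean log2 ratio with samples exchanged between organs within an age (100000 resamples, two-sided, Benjamini-Hochberg over 55 pairs), 54 of 55 pairs differed at an adjusted p under 0.05. In 44 of these pairs no sample of one organ overlapped the other. The exception was liver against lung, where the difference in mean log2 ratio was 0.19 and the p 0.192 (permutation test, raw and adjusted). This pooled difference averages over ages at which the order of the pair changed. At week 2 the mean log2 ratio was 2.94 in liver and 3.61 in lung, and at week 6 it was 3.53 and 3.58. Liver was the higher at week 21, with 3.91 against 3.29, and at week 104, with 4.48 against 3.62. The closest pair that did differ was adrenal gland and thymus, by 0.24 on the log2 scale (permutation p = 0.00019, adjusted 0.000201). Within each of the 8 sequencing lanes, the order of organs by this ratio had a Spearman correlation of 0.973 or more with the order over all lanes.

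**Figure D2:**
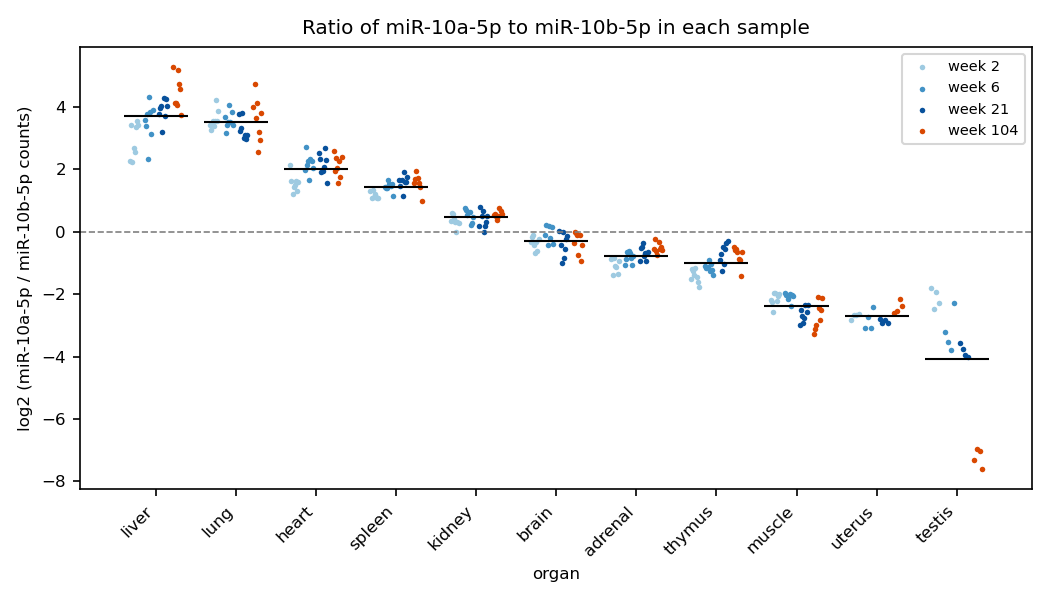
Log2 ratio of miR-10a-5p to miR-10b-5p counts (0.5 added to each), each point 1 sample coloured by age, each line the mean of an organ; the dashed line marks equal counts. Liver and lung lie at the top with means of 3.71 and 3.53 and testis at the bottom with -4.09, where the samples separate by age.

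The 3p arms of the same hairpins, which differ by 3 bases where they overlap, were counted in far fewer reads. Summed over kidney samples there were 15426 reads of miR-10a-3p and 5761 of miR-10b-3p, against 43286717 and 31946115 of the 5p arms. MiR-10a made up 95.9% of 3p reads in liver, 94.9% in lung, 72.8% in kidney, 18.8% in muscle and 9.40% in testis. On the 5p arms the corresponding shares were 92.0%, 91.7%, 57.5%, 15.4% and 4.84%. The log2 ratio of the 3p arms exceeded that of the 5p arms in every organ, by 0.34 in muscle to 1.15 in heart. Over the 37 of 44 organ and age points with at least 100 reads of the 3p arms, the 2 log2 ratios had a Pearson r of 0.991 and a Spearman rho of 0.976, given as a description since points of one organ are not independent. The lowest share of miR-10a-5p in the sum of both 5p counts was 0.514% (Wilson interval 0.507 to 0.521%, 95%, counting error only), in a testis sample of week 104. The lowest share of miR-10b-5p was 2.51% (2.42 to 2.60%), in a female liver sample of week 104.

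The question of age was asked in each organ separately, with contrasts of week 6 with 2, 21 with 6, 104 with 21 and 104 with 2, called at an adjusted p under 0.05 and at least 2-fold (edgeR, mean over the sexes present). These contrasts share samples, so their values are not independent. For week 104 against week 2, 34.3% of the tests over all miRNAs and organs were called, and for weeks 6 against 2, 21 against 6 and 104 against 21 the shares were 20.5%, 7.75% and 9.71%. MiR-10a-5p was called in 5 of 11 organs, higher in adrenal gland, heart, muscle and thymus and lower in testis. MiR-10b-5p was called in 3 of 11, higher in muscle, thymus and testis. With 11 organs, both counts are close to that background share, and neither is read as a result about these miRNAs. When scaled by plain library totals, the changes of miR-10a-5p in adrenal gland, heart and muscle were under 2-fold.

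TMM scaling and plain library totals gave different sizes of change. The log2 change from week 2 to week 104 was larger with TMM by 1.68 in testis, 0.944 in uterus, 0.891 in muscle and 0.192 to 0.565 in the other organs but thymus, where it was smaller by 0.269. Both values are given below where they differ in call or direction.

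In thymus, both miR-10 paralogs rose with age. MiR-10a-5p had 6959 ± 1303 CPM at week 2 (n = 8, 4879 to 9341, median 7050.2), 9544 ± 3303 at week 6, 27328 ± 7633 at week 21 and 76993 ± 22244 at week 104 (46178 to 116429, median 72120.0). No sample of week 104 overlapped a sample of week 21 or earlier. The log2 change from week 2 to 104 was 3.20 ± 0.21 (SE, adjusted p = 3.68e-15, edgeR), 1.62 of it between weeks 6 and 21 and 1.16 between weeks 21 and 104. MiR-10b-5p went from 18438 ± 2608 CPM (14975 to 22228) at week 2 to 131586 ± 42268 (87036 to 213744) at week 104, a log2 change of 2.55 ± 0.21 (adjusted p = 1.64e-12). In the thymus 19% of all miRNAs were called higher in this contrast. The change in thymus also exceeded the mean change of the other 10 organs, by 2.61 ± 0.24 on the log2 scale for miR-10a-5p and 1.77 ± 0.30 for miR-10b-5p (adjusted p = 2.62e-21 and 8.85e-08, edgeR over all 80 groups). Over all miRNAs, 19.8% of such tests were called.

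Other cell type markers moved in the same thymus samples. Summed over the 2 endothelial markers the level went from 2908 to 7154 CPM at week 2 to 9242 to 29035 at week 104, and over the 3 red blood cell markers from 805 to 1876 to between 6243 and 93486 CPM. The 4 lymphocyte markers went from 36745 to 57326 CPM down to 11598 to 29628 CPM. All markers of these lists were detected at both ages, and their part in the rise of miR-10a-5p and miR-10b-5p was not tested.

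In testis the 2 paralogs moved in opposite directions between weeks 2 and 104. From week 2 to week 6 the CPM of both fell. With TMM this step was called lower for miR-10a-5p and was not called for miR-10b-5p. MiR-10a-5p was 69656, 54411, 62079 and 37569 CPM in the 4 samples of week 2 and 7512, 6975, 12460 and 30466 CPM in those of week 6. At week 21 it was 6876, 8524, 8118 and 10386 CPM, and at week 104 it was 3201, 4340, 4797 and 2726 CPM. All 4 samples of week 104 were below all samples of the earlier ages in CPM, although from week 21 to 104 the log2 change was 0.21 with TMM and -1.17 with library totals. The log2 change from week 2 to 104 was -2.22 ± 0.48 (adjusted p = 7.30e-04, edgeR), and -3.89 with library totals.

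MiR-10b-5p was 244078, 299352, 236761 and 182574 CPM in testis at week 2 and 69808, 79855, 170245 and 147591 CPM at week 6. Samples of week 21 had 80435, 114773, 124989 and 168384 CPM. At week 104 it reached 507989, 540085, 618704 and 527426 CPM, more than in any other sample of the series. From week 2 to 104 the log2 change was 2.83 ± 0.41 (adjusted p = 1.31e-05, edgeR), and 1.19 with library totals. From week 21 to 104 it was 3.51 ± 0.42 (adjusted p = 1.45e-06), and 2.17 with library totals. As a ratio within libraries, the log2 of miR-10a-5p to miR-10b-5p went from -2.12 ± 0.30 at week 2 to -7.22 ± 0.29 at week 104 (SD, n = 4 each), without overlap. With 4 samples against 4, the exact permutation p of 0.0286 is the smallest possible (adjusted 0.0349). On the 3p arms, miR-10a was 0.744% of the reads in testis at week 104, against 0.680% on the 5p arms.

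The 5 germ cell markers of the list were far from constant in the same testis samples. Their summed level was 1748 to 2741 CPM at week 2, 149001 to 178838 at week 6, 147088 to 169604 at week 21 and 80.3 to 2513 CPM at week 104. The 4 smooth muscle and mesenchyme markers were at 139788 to 221390 CPM at week 21 and 17811 to 59132 CPM at week 104. All markers were detected at every age, and their part in the miR-10 levels was not tested. The paper reports that piRNA, not miRNA, made up most reads of testis libraries from adolescent and adult rats. Those ages correspond to weeks 6 and 21 here. Over all ages, the miRNA totals of testis libraries ran from 734282 to 7383298 counts. Whether this difference in composition bears on the testis levels and age changes of miR-10 and miR-196 was not tested.

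In muscle both paralogs were higher at week 104 than at week 2. MiR-10b-5p had 83649 ± 40555 CPM at week 2 (n = 8, 42185 to 170902, median 77298), 148087 ± 37138 at week 6, 267299 ± 71448 at week 21 and 205639 ± 103890.0 at week 104 (123286 to 416993, median 165770). The samples of weeks 2 and 104 overlapped. The log2 change was 2.22 ± 0.29 (adjusted p = 2.17e-08), and 1.34 with library totals. MiR-10a-5p went from 18116 ± 5864 to 30778 ± 10071 CPM, a log2 change of 1.69 ± 0.24 (adjusted p = 1.39e-07) that was 0.80 with library totals and then not 2-fold. Muscle exceeded the mean change of the other organs for both, by 1.79 and 1.37 on the log2 scale (adjusted p = 6.01e-08 and 7.10e-08). The 4 striated muscle markers went from 55383 to 100688 CPM at week 2 to 102814 to 175161 CPM at week 104, with 3 of the 4 detected above 3 counts at week 2 and 4 at week 104, and their part was not tested.

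**Figure D3:**
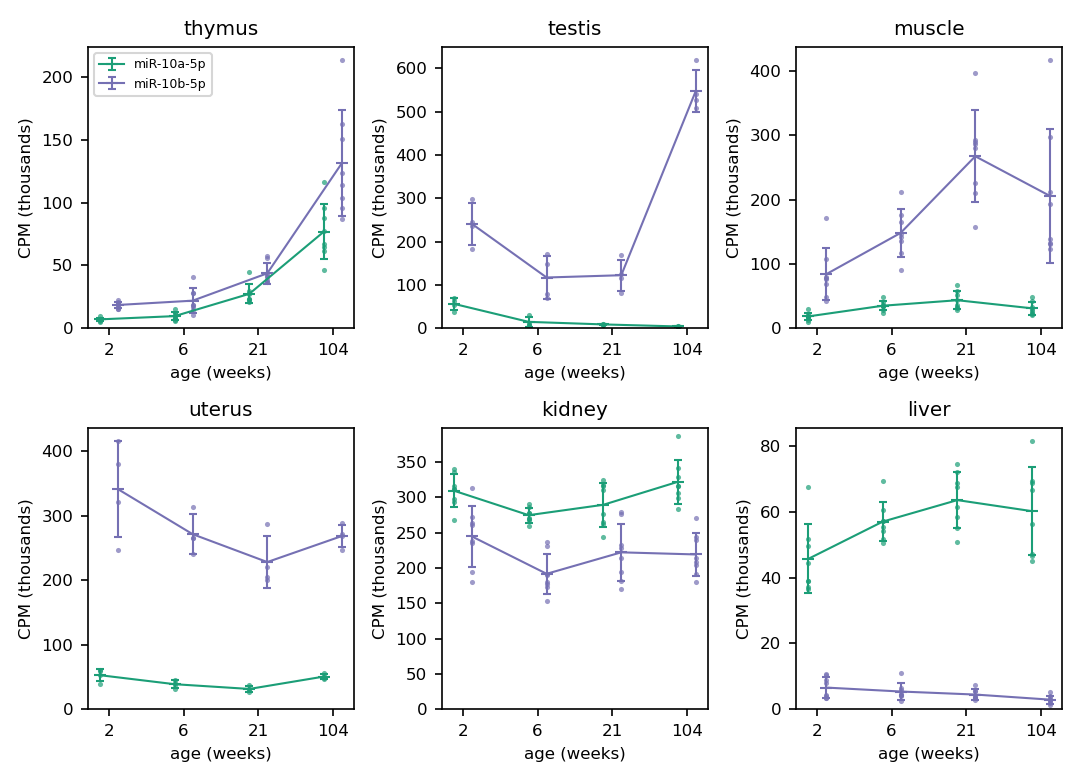
CPM (scaled as the axis label states) of miR-10a-5p and miR-10b-5p against age (ages evenly spaced, not to scale) in 6 organs, points being samples and bars the mean ± SD. In thymus both lines rise, to 76993 and 131586 CPM at week 104, while in testis miR-10b-5p reaches 548551 CPM as miR-10a-5p falls to 3766 CPM.

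Adrenal gland and heart showed a smaller rise of miR-10a-5p, and miR-10b-5p was not called there. In adrenal gland miR-10a-5p was 140727 ± 13561 CPM at week 2 (n = 8, 122175 to 159911) and 219235 ± 15145 at week 104 (194613 to 236536), with no overlap. The log2 change of 1.02 ± 0.19 (adjusted p = 4.56e-05) was 0.64 with library totals, again under 2-fold. In heart it went from 17796 ± 5241 to 29951 ± 9100.4 CPM, a log2 change of 1.29 ± 0.18 (adjusted p = 1.62e-07) and 0.73 with library totals. In uterus, miR-10a-5p was 29012, 26817, 31450 and 37598 CPM at week 21 and 47517, 47005, 55616 and 51642 CPM at week 104. These samples did not overlap, and the log2 change was 1.19 ± 0.24 (adjusted p = 0.00155), 0.69 with library totals and then not 2-fold; with lane as a term its adjusted p was 0.0512. Uterus at week 2 had 52529 ± 9572 CPM, so that this rise followed lower levels at weeks 6 and 21.

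The ratio of the paralogs within libraries differed between weeks 2 and 104 in 9 of 11 organs (exact permutation test, two-sided, adjusted p under 0.05 over 11 organs). It shifted towards miR-10a-5p in liver by 1.54 on the log2 scale (from 2.94 ± 0.56 to 4.48 ± 0.56, SD, n = 8, no overlap, exact permutation p = 0.000155, the smallest possible, adjusted 0.000855). The shift was 0.65 in thymus, 0.56 in heart, 0.54 in adrenal gland, 0.39 in spleen, 0.28 in uterus and 0.21 in kidney. It went towards miR-10b-5p in muscle by 0.52 and in testis by 5.10. In brain and lung the difference was 0.02 in each, with an exact permutation p of 0.864 and 0.951. Within sequencing lanes that held both ages, liver shifted the same way in 2 of 2 lanes, thymus and adrenal gland in 5 of 5, kidney in 4 of 4, heart in 3 of 4 and spleen in 3 of 4. Muscle shifted the same way in 3 of 3 lanes, with a median of -0.04. Lung, with a difference of 0.02 over all samples, was higher at week 104 in 4 of 4 lanes, with a median shift of 0.46, and brain in 2 of 5, with a median of -0.07. In liver, miR-10b-5p CPM went from 6541 ± 3194 to 2872 ± 1250.1 while miR-10a-5p went from 45631 ± 10491 to 60168 ± 13359, neither change being called, while with library totals the change of miR-10b-5p was -1.14 on the log2 scale (adjusted p = 7.66e-04, edgeR) and was called.

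The miR-196 paralogs were far scarcer than miR-10, and each had its highest level in another organ or pair of organs. MiR-196b-5p was the most abundant of them. In uterus it had 1788 CPM on average (n = 16, samples from 809 to 3033), in kidney 744 (n = 32, 488 to 1159), in muscle 330 (n = 32, 136 to 515), in thymus 56.5 (n = 32, 3.17 to 119), in testis 46.8 (n = 16, 2.71 to 239) and in spleen 34.8 (n = 31, 7.17 to 79.7). Adrenal gland had 13.3 CPM, and liver, lung, heart and brain had 5.31, 3.81, 2.60 and 1.46 CPM. Uterus exceeded kidney, kidney exceeded muscle and muscle exceeded thymus at all 4 ages (edgeR, adjusted p under 0.05). It was called in 165 of 220 organ contrasts (75%, against 33.3% over all miRNAs), the most of the 11 members.

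The row rno-miR-196a-5p (miR-196a-5p) was highest in muscle and kidney, at 270.7 CPM (n = 32, 167 to 431) and 268 CPM (n = 32, 127 to 514). Muscle was higher than kidney at 2 ages and lower at 1. Uterus had 146 CPM, testis 49.0 and adrenal gland 4.40, and in the other 6 organs the mean was between 0.360 and 1.02 CPM, where most samples had 3 counts or fewer. Muscle, kidney and uterus were each at least 4-fold above 7 or more other organs at all 4 ages, kidney above 8. Over all miRNAs, kidney was called higher in 11.4% of its contrasts, and no such share was computed for muscle and uterus. Thymus, liver and spleen, next to each other in the order, did not differ at any age. At so few counts the test could hardly have found a difference between them. MiR-196a-5p was called in 143 of 220 contrasts (65%, against 33.3% over all miRNAs).

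MiR-196c-5p had yet another pattern. Testis of week 2 had 129, 161, 194 and 184 CPM, while testis of week 6 had 0.934, 1.79, 0 and 0.956 CPM and testis of week 21 had 0, 0, 0.803 and 2.12 CPM. With no more than 3 counts in any sample of weeks 6 and 21, the level at week 2 was at least 53.7-fold higher than the limit of 3 counts per library at week 6 and at least 68.1-fold higher than that at week 21. At week 104, 3 testis samples had 0.896, 0.533 and 0.547 CPM and 1 had 70.02 CPM (517 counts). Adrenal gland held a steadier level of 32.1 CPM (n = 32, 14.5 to 49.6), followed by uterus at 10.6 and kidney at 7.71 CPM. In the other organs the mean was under 1 CPM, and in spleen, liver, lung and brain no sample had more than 3 counts. It was called in 153 of 220 contrasts (69.5%, against 33.3% over all miRNAs). Adrenal gland was at least 4-fold above 7 other organs at all 4 ages, a count for which no share over all miRNAs was computed.

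**Figure D4:**
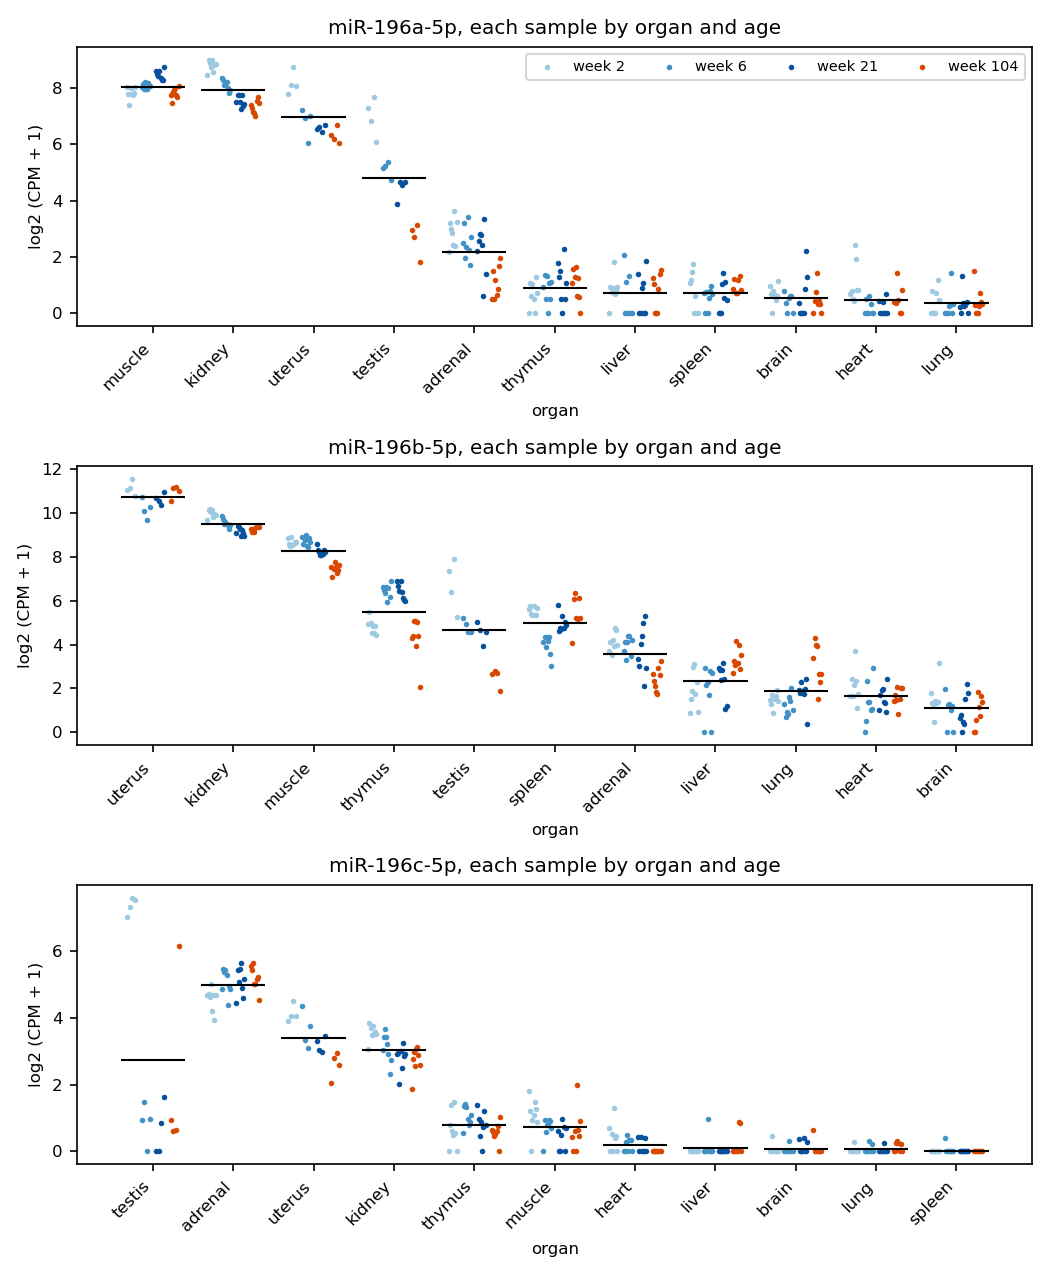
Log2(CPM + 1) of the 3 miR-196 5p miRNAs, each point 1 sample coloured by age and each line the mean of an organ, organs ordered by mean CPM. Uterus leads for miR-196b-5p (1788 CPM), muscle and kidney for miR-196a-5p (270.7 and 268 CPM), and for miR-196c-5p testis of week 2 stands above all other samples.

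Since the 3 share a seed and a length, their shares of the miR-196 5p counts were compared in samples with at least 30 such counts, as a description. Uterus was 92.1 ± 3.31% miR-196b-5p (SD, n = 16), thymus 96.1 ± 2.65% (n = 31) and spleen 97.7 ± 1.80% (n = 26). Kidney was 73.9 ± 3.90% miR-196b-5p and 25.4 ± 3.90% miR-196a-5p (n = 32), and muscle 53.7 ± 9.46% and 46.1 ± 9.46%. Adrenal gland alone among these had a majority of miR-196c-5p, 65.8 ± 17.1% (n = 32). MiR-196c-5p was 0.761% of the counts in kidney and 0.128% in muscle.

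**Figure D5:**
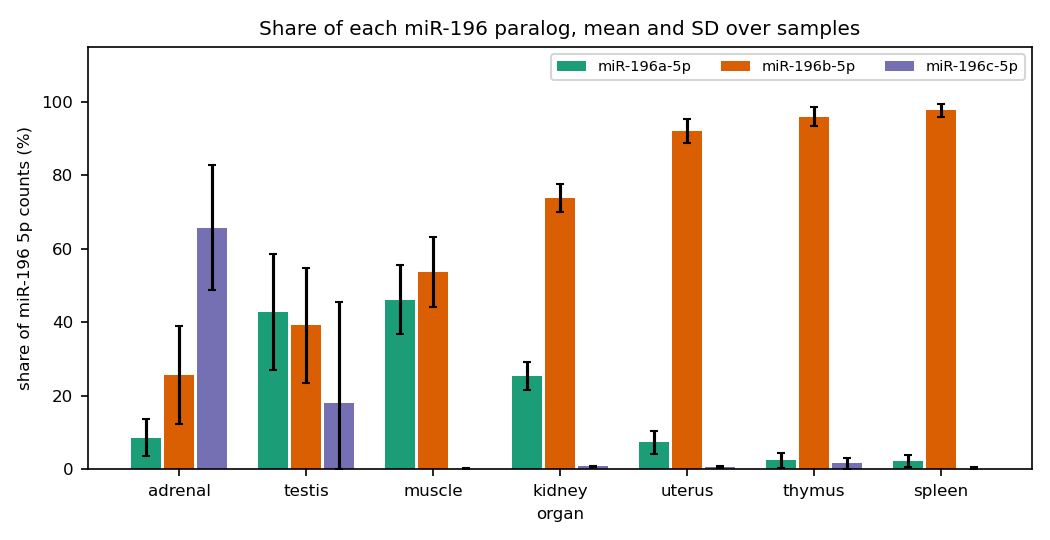
Share (%) of each paralog in the miR-196 5p counts of a sample, bars being means and error bars the SD over samples with at least 30 such counts. MiR-196b-5p makes up 92.1% in uterus, 96.1% in thymus and 97.7% in spleen, and miR-196c-5p 65.8% in adrenal gland.

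With age, miR-196a-5p fell in kidney from 446 ± 56.9 CPM at week 2 (n = 8, 350.3 to 514) to 162 ± 25.6 at week 104 (127 to 203), by 1.26 ± 0.10 on the log2 scale (adjusted p = 2.80e-13, edgeR), with no overlap. MiR-196b-5p in kidney was 1019 ± 118 and 628 ± 50.1 CPM at these ages, a log2 change of -0.49 ± 0.10 (adjusted p = 6.13e-05) that is not 2-fold. Its share of miR-196 5p counts in kidney was 69.1 ± 1.22% at week 2 and 79.0 ± 1.72% at week 104, again without overlap.

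In muscle the shares went the other way. MiR-196a-5p was 35.6 ± 2.09% of miR-196 5p counts at week 2 (n = 8, 31.5 to 38.8), 38.9 ± 2.69% at week 6, 54.0 ± 3.35% at week 21 and 56.1 ± 2.05% at week 104 (52.8 to 58.5). The samples of weeks 2 and 104 did not overlap. The size of each change alone depended on the scaling, and for miR-196a-5p so did its sign. With TMM the log2 change from week 2 to 104 was 0.91 for miR-196a-5p and -0.29 for miR-196b-5p. With library totals it was -0.02 and -1.21, so the change of miR-196b-5p was negative either way. In CPM, miR-196a-5p had 229 ± 31.9 and 226 ± 30.1, and miR-196b-5p 410.2 ± 43.1 and 177 ± 25.6.

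In testis miR-196a-5p and miR-196b-5p were lower after week 2. MiR-196a-5p was 155, 112, 205 and 66.2 CPM at week 2, 34.6, 36.8, 40.9 and 25.8 CPM at week 6 and 6.72, 5.50, 7.80 and 2.57 CPM at week 104. MiR-196b-5p was 164, 84.3, 239 and 37.3 CPM at week 2 and 5.38, 6.04, 5.61 and 2.71 CPM at week 104. The log2 change from week 2 to 104 was -2.91 ± 0.42 for miR-196a-5p and -3.10 ± 0.46 for miR-196b-5p (adjusted p = 1.34e-05 and 1.99e-05), and 33% of all miRNAs were called lower in testis in this contrast. The higher mean of miR-196c-5p at week 104 than at week 21 (log2 change 5.68, adjusted p = 0.00552) rested on the 1 sample with 70.02 CPM: without replicate 4 the change was 2.35 with an adjusted p of 0.0625.

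In adrenal gland miR-196a-5p and miR-196b-5p were lower at week 104 than at week 2, while miR-196c-5p was higher. Between successive ages, both falls were called only from week 21 to 104, and the rise of miR-196c-5p at no single step. MiR-196a-5p fell from 6.66 ± 2.64 to 1.302 ± 0.919 CPM (n = 8 each, no overlap) and miR-196b-5p from 16.9 ± 5.50 to 4.71 ± 2.11 CPM, by 1.94 ± 0.44 and 1.40 ± 0.38 on the log2 scale (adjusted p = 5.04e-04 and 0.00283). MiR-196c-5p was 23.3 ± 5.14 CPM at week 2 and 36.9 ± 8.88 at week 104, a log2 change of 1.06 ± 0.20 (adjusted p = 3.84e-05), and 0.66 with library totals and then not 2-fold. Its share of miR-196 5p counts was between 33.9 and 61.4% at week 2 (n = 8) and between 66.5 and 93.1% at week 104, with a mean of 85.4 ± 8.47%.

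MiR-196b-5p followed its own course in the lymphoid organs and the lung. In thymus it had 28.0 ± 7.15 CPM at week 2, 88.7 ± 17.8 at week 6, 87.5 ± 23.0 at week 21 and 21.8 ± 10.5 at week 104 (n = 8 each). It rose from week 2 to 6 by 1.64 ± 0.22 on the log2 scale (adjusted p = 4.31e-07) and fell from week 21 to 104 by 2.39 ± 0.23 (adjusted p = 1.23e-10), in both cases without overlap. MiR-10a-5p and miR-10b-5p rose over that later interval. In spleen it was 45.5 ± 6.34 CPM at week 2, in the samples with degraded RNA, and 15.4 ± 4.46 at week 6. After week 6 the mean of miR-196b-5p in spleen was higher again. Its level ran from 7.17 to 19.39 CPM at week 6, from 23.27 to 54.57 at week 21 and from 16.03 to 79.67 at week 104. In lung it was 1.85 ± 0.590 CPM at week 2 and 9.22 ± 6.03 at week 104, a log2 change of 2.28 ± 0.29 (adjusted p = 6.58e-08), while the 4 lymphocyte markers went from 2232 to 3674 CPM to between 4333 and 18176 CPM in the same samples; their part was not tested. In liver it was 3.38 and 9.74 CPM, a log2 change of 1.76 (adjusted p = 9.80e-04) that was 0.95 with an adjusted p of 0.371 when lane was a term of the fit.

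None of the 5 leading 5p miRNAs was called between females and males in any of the 9 organs with both sexes (edgeR, adjusted p under 0.05; 1.39% of tests were called over all miRNAs). At an unadjusted p under 0.05, 1 organ passed for miR-10a-5p, 2 for miR-10b-5p, 0 for miR-196a-5p, 3 for miR-196b-5p and 1 for miR-196c-5p, and DESeq2 called 1, for miR-196b-5p. The difference between the sexes in the change from week 2 to 104 was called once among these 5 (1.24% over all miRNAs), for miR-196b-5p in lung. There the 4 females of week 104 had 9.61, 18.4, 14.7 and 14.5 CPM and the 4 males 1.84, 5.36, 3.97 and 5.36 CPM, without overlap, after 0.837 to 2.28 and 1.68 to 2.84 CPM at week 2. The female change exceeded the male change by 2.21 ± 0.59 on the log2 scale (adjusted p = 0.0493), a call that was lost with lane as a term (adjusted p = 0.274), with miRNAs under a mean count of 10 left out, and without replicate 1, 2 or 3.

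MiR-615 and the miR-196 3p arms were near the limit of detection. MiR-615 was highest in uterus at 2.68 CPM and in kidney at 2.35 CPM, and 76 samples had more than 3 counts while 242 had 3 or fewer. MiR-196a-3p was highest in muscle at 6.64 CPM, miR-196b-3p in uterus at 5.79 CPM and miR-196c-3p in adrenal gland at 13.8 CPM, each in an organ where its 5p arm ranked first or, for miR-196c, behind testis.

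The likeness of patterns was described by the Pearson correlation of log2(CPM + 1) over the 80 group means, which share rats, lanes and organs. MiR-10a-5p and miR-10b-5p had r = 0.503 with each other. The most alike to miR-10a-5p were miR-10a-3p (r = 0.950), miR-203b-3p (0.603) and miR-203a-3p (0.567), and without testis and uterus the last 2 ranked 5 and 6. For miR-10b-5p they were miR-10b-3p (0.977), miR-196c-5p (0.741) and miR-615 (0.730), all of the Hox clusters. MiR-196a-5p was most like miR-196a-3p (0.944), miR-196b-3p (0.887) and miR-196b-5p (0.868), miR-196b-5p most like miR-196b-3p (0.900), miR-196a-5p (0.868) and miR-615 (0.778), and miR-196c-5p most like miR-196c-3p (0.964), miR-10b-3p (0.815) and miR-10b-5p (0.741). The 3p arms of miR-196a, miR-196b and miR-196c had 3 counts or fewer in 237, 246 and 233 samples. Their Spearman correlations were lower: 0.677 and 0.629 for miR-196a-5p with miR-196a-3p and miR-196b-3p. For miR-196b-5p with miR-196b-3p it was 0.832, and for miR-196c-5p with miR-196c-3p 0.726.

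The miR-10 family also has members outside the Hox clusters, miR-99a, miR-99b and miR-100, whose 5p arms carry the seed ACCCGUA. Brain was the lowest organ for miR-10a-5p and miR-10b-5p. It had the highest level of miR-99b-5p (24977 ± 10843 CPM, n = 31) and the second highest of miR-99a-5p (3249 CPM) and miR-100-5p (9766 CPM). In organ contrasts miR-99b-5p was called in 17 of 220, miR-99a-5p in 30 and miR-100-5p in 65, against 122 and 148 for miR-10a-5p and miR-10b-5p and 33.3% over all miRNAs.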

How the data were processed

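Total RNA from ground organs was made into small RNA libraries with the Illumina TruSeq Small RNA kit. Per the labels and the study's methods, the authors trimmed reads with fastp 0.23.2, kept 16 to 35 nt, aligned them with Bowtie 1.3.1 allowing fewer than 2 mismatches to miRBase and other collections (build rn7) and deposited raw counts per miRNA, without miRNAs of under 1 count per library. From these counts, CPM was computed from column totals, with no filter. Organs, ages, sexes and their interactions were tested with edgeR 4.0.16 (quasi-likelihood, TMM) in R 4.3.3, Benjamini-Hochberg over 616 miRNAs per contrast, after tests on simulated data. Replicates are separate rats, but organs of one rat were treated as independent. Ratios were tested by permutation over samples. Every row found by name is named, with the 3 miRNAs most like each of the 5 leading 5p miRNAs; for the other members likeness was not computed, although the naming rule covered them. The members and lists were chosen with earlier results of these data known. Alternatives were library totals, DESeq2 1.42.0, a mean count of 10, all 320 samples, lane, sex and replicate terms, and leaving out replicates. Intervals cover counting error only.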

Additional observations from a re-analysis of the deposited data

Results flagged for a closer look

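In groups of 4 samples, 23 of 303 tested values (7.59%) of the 5 leading 5p miRNAs lay apart from the other 3 samples by a gap above Dixon's 95% limit, where chance gives about 1 in 20. Samples are named by organ, sex, week and replicate, with values in CPM. For miR-10a-5p these were brain female week 6 replicate 4 (2241), brain female week 21 replicate 3 (5249, others up to 1615), kidney male week 6 replicate 3 (291390.2), liver male week 2 replicate 1 (51584), muscle male week 6 replicate 3 (40386) and thymus female week 21 replicate 4 (27412). For miR-10b-5p they were brain female week 21 replicate 3 (10490.2, others up to 1619), heart female week 104 replicate 4 (7702), liver male week 2 replicate 1 (8754), muscle female week 21 replicate 4 (210001.6) and muscle male week 104 replicate 2 (297621, others up to 132816). For miR-196a-5p they were heart female week 104 replicate 4 (1.71), lung female week 104 replicate 1 (1.82), lung male week 6 replicate 2 (1.69) and muscle male week 21 replicate 4 (431). For miR-196b-5p they were brain male week 2 replicate 4 (7.99), heart male week 6 replicate 4 (6.53), spleen female week 21 replicate 1 (54.6) and spleen male week 104 replicate 3 (68.8). For miR-196c-5p they were adrenal gland female week 6 replicate 1 (28.0), kidney female week 21 replicate 3 (3.07), thymus female week 6 replicate 1 (0.454) and testis male week 104 replicate 4 (70.02, others up to 0.896). The brain female and liver male samples stood apart for both miR-10a-5p and miR-10b-5p.

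The change from week 2 to 104 differed between an organ and the mean of the others (edgeR, adjusted p under 0.05 and 2-fold) as follows, on the log2 scale. For miR-10a-5p it was 2.61 in thymus, 1.37 in muscle and -3.07 in testis. For miR-10b-5p it was 2.36 in testis, 1.79 in muscle, 1.77 in thymus, -1.11 in brain and -1.56 in liver. For miR-196a-5p it was 1.67 in muscle, -1.41 in adrenal gland and -2.67 in testis. For miR-196b-5p it was 2.62 in lung, 2.30 in liver, -1.10 in adrenal gland and -3.15 in testis. Between the sexes this change differed for miR-196b-5p in lung, by 2.21.

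Both libraries left out stood above the samples of their group. The study had removed them because they clustered with uterus samples. The male brain library of week 6 had 397.6 CPM of miR-196b-5p, 69.5 of miR-196a-5p, 63146 of miR-10b-5p and 41140.7 of miR-10a-5p, against at most 1.29, 0.525, 2759 and 2159 in the others. The female spleen library of week 104 had 622 CPM of miR-196b-5p, 104.2 of miR-196a-5p and 95926 of miR-10b-5p, against at most 79.7, 1.35 and 24131.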

How the results depend on the processing

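Counts of called organ contrasts stayed within 1.5 times the reported ones under the alternatives run, a 2-fold limit included, but by adjusted p alone miR-10a-5p had 194 against 122. Of 20 recomputed lists of the 3 most alike miRNAs, 9 changed a member. Of 1009 recomputed values of 93 single called results, 869 kept their call and direction, 140 lost the call and 0 reversed. Age calls over the 4 contrasts and 11 organs were 10 for miR-10a-5p, 6 with library totals and 19 without the fold limit. For miR-196a-5p they were 6 and without the fold limit 13, for miR-196b-5p 11 and 20. For miR-196c-5p they were 4, with 1 by DESeq2, 2 with lane as a term, 8 without the fold limit and a lowest count of 2 when a replicate was left out (without replicate 3). Organ by age calls of miR-10a-5p went from 3 to 6 without the fold limit, of miR-196a-5p from 3 to 5 with all 320 samples and of miR-196c-5p from 0 to 2 by DESeq2. Sex calls went from 0 to 1 for miR-10b-5p with library totals and for miR-196b-5p by DESeq2. Sex by age calls went from 0 to 1 for miR-10a-5p and miR-10b-5p without replicate 1, and from 1 to 0 for miR-196b-5p with a mean count of 10, with lane, and without replicate 1, 2 or 3. The age shift of the miR-10 ratio was called in 9 organs and in 3 to 5 when a replicate number was left out, where 3 samples against 3 in testis and uterus cannot pass. Its uncalled difference, 0.02 in brain and lung, changed sign without replicate 2 in brain and without replicate 2 or 4 in lung, the range over replicates left out being -0.0315 to 0.0714 in brain and -0.0867 to 0.109 in lung. Beyond the settings named by their construction, the cause was not tested.

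No pairing of samples by replicate number was detected: same-number deviations had a mean r of 0.0103 between organs, 0.00721 between ages and -0.00329 between sexes. Such values cannot show that organs with the same number came from different rats. With the replicate block, organ calls were 122, 148, 144, 165 and 153 and age calls 10, 9, 6, 11 and 5 for miR-10a-5p, miR-10b-5p, miR-196a-5p, miR-196b-5p and miR-196c-5p, and 52 of 54 pairs of organs tested differed in the miR-10 ratio. Leaving out week 2 spleen, chosen after seeing the data, moved no count by over 1.5 times. Depth limits miR-615, the miR-196 3p arms and miR-196c-5p outside adrenal gland, testis, uterus and kidney.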
